A study of Mus musculus with 4 samples.

Results

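The cells described here are Actg2+ cells of the mouse colon, proposed as visceral smooth muscle cells, 179 of 38852 kept cells in 4 single-cell libraries. Barcodes entered when 200 or more genes were seen and mitochondrial transcripts made up no more than 25%. Members were chosen by their own counts: a kept cell was a member when it had a count of Actg2 and of at least 3 in all of 7 muscle genes (Actg2, Myh11, Des, Cnn1, Synpo2, Lmod1 and Tagln), and no count of Rgs5, Notch3, Ptprc, Epcam, Pecam1, Dpt or Lum, which mark vascular mural cells, leukocytes, epithelium, endothelium and fibroblasts. The libraries gave 62 and 52 members in control 1 and control 2, and 29 and 36 in CCl4 1 and CCl4 2. The study compared 2 libraries of control mice with 2 libraries of mice treated with CCl4 (carbon tetrachloride, a solvent toxic to the liver) for 6 weeks from 6 weeks of age. No age, duration or vehicle is given for the control mice, and no strain, sex or number of animals for any library. Whole colon was taken apart with enzymes and single cells were caught in droplets. Whether libraries of a group came from separate animals is not stated, so each p-value rests on library-to-library spread alone, and this may be technical.

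Visceral smooth muscle forms the muscle coat of the gut and the thin muscularis mucosae under the crypts. It contracts when calcium, bound to calmodulin, activates the myosin light chain kinase, and the phosphorylated myosin pulls on filaments of smooth muscle actin. Actg2 encodes the enteric gamma actin of this muscle, while Acta2, the alpha actin, is shared with blood vessel walls and with myofibroblasts, the actin-bearing stromal cells around the crypts.

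The members did not form a single kind of cell. The rule fixed a count of Actg2 in all of them and left the other muscle markers free to vary: Myh11 had a count in 94.4% of members, Des in 59.2% and Synpo2 in 34.1%. These shares follow in part from the rule and support no identity. A count of Hhip, Adamdec1 or Postn was found in 129 members, and 50 carried none of these. Of the 129, 85 had all of these genes, 40 had a pair of them and 4 had a single one. Hhip encodes a membrane protein that binds hedgehog ligands, Adamdec1 a secreted metalloprotease of gut stroma, and Postn (periostin) a matricellular protein. The 129 cells are called the Postn set below and the 50 the Pln set. This division was made after the values were seen and is a description, with no test. A count of Pln, phospholamban, which restrains the calcium pump of the sarcoplasmic reticulum, was found in 0 of the 129 cells and in 35 of the 50, and a count of Rgs4, a brake on G protein signals, in 0 of the 129 and in 29 of the 50.

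The genes that led each set are given as the share of cells with a count after every cell was thinned to 1000 counts; for free RNA, epithelial cells had Postn in 6.52% and Pln in 0.542%. In the Postn set, Postn reached 86.0% and Adamdec1 67.4%, which follows from the way the set was chosen. Other leading genes were Col3a1, a fibrillar collagen, with 69.0% against 2% in the Pln set, Tgfbi, an adhesion protein of the matrix, with 65.9% against 2%, and Rgs10, a regulator of G protein signals, with 62.8% against 2%. The Pln set was led by Sparcl1, a secreted glycoprotein, with 90% against 23.3% in the Postn set, Mfge8, a secreted glycoprotein of vessel walls, with 74% against 14.0%, Des, the desmin filament of muscle, with 86% against 28.7%, and Pcp4l1, a small protein with an IQ motif, with 80% against 26.4%. Vascular mural cells, 602 cells gated by Rgs5 and Notch3 with no count of Ptprc, Epcam, Pecam1, Dpt or Lum, resembled the Pln set in these genes: Sparcl1 was found in 80.9% of them, Mfge8 in 80.1%, Des in 64.0%, Pln in 37.0% and Rgs4 in 44.7%. Hhip was found in 0.332% of mural cells and in 4.71% of fibroblasts, against 59.7% of the Postn set. The Postn set was chosen in part by Hhip, so its high share is no independent difference. The Pln set and the mural cells had unlike shares in other genes. Actg2, which the rule required, was found in 82% of the Pln set and in 8.47% of mural cells. Cnn1, a muscle gene of the rule, was found in 32% and 6.15%. Both differences follow in part from the rule. Steap4 was found in 0% and 5.32%, and with 50 cells in the Pln set such a low share is hard to tell from 0. The label of visceral muscle was therefore met only in part. The Pln set shared leading genes with the mural gate, and the Postn set carried fibroblast genes beside Actg2 and Myh11. Fibroblast markers summed to 4238 to 6159 CPM (counts per 1000000) in the 4 libraries of the Postn set and to 315 to 818 in the Pln set. Adamdec1 is among these markers and also helped to divide the sets, so this contrast follows in part from the division. The cells are named here by the gene that the rule required, with no cell type.

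**Figure D1:**
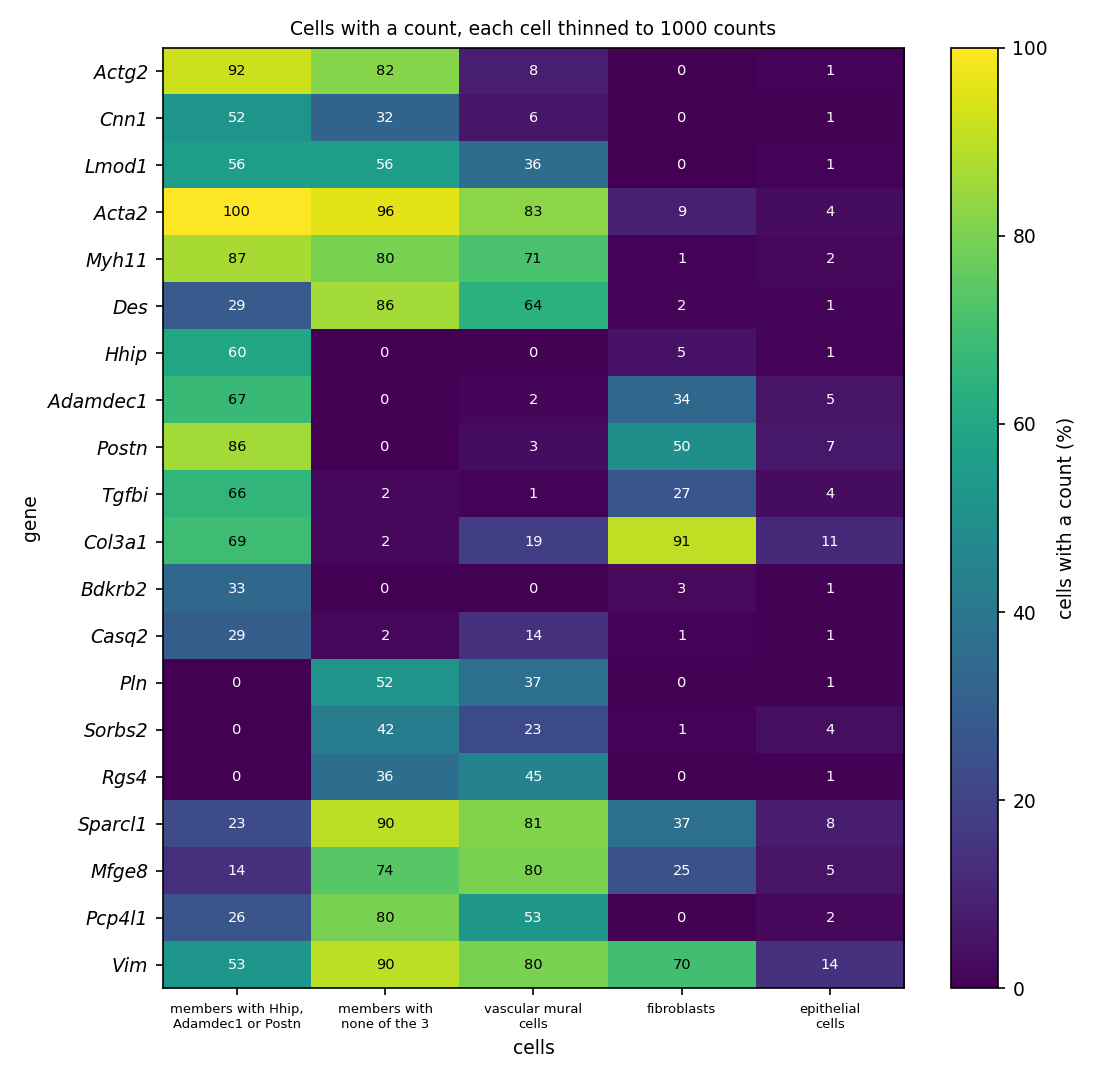
Share of cells with a count (colour and number, %) of 20 genes (rows) in the Postn set, the Pln set, vascular mural cells, fibroblasts and epithelial cells (columns), each cell thinned to 1000 counts, pooled over 4 libraries. Pln, Sorbs2 and Rgs4 are at 0 in the Postn set. Postn reaches 86.0% there, and Hhip, Adamdec1 and Postn are 0 in the Pln set, by the way the sets were chosen. Actg2 is 0 in fibroblasts by their gate.

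The sets shared contractile genes and differed in other roles. Acta2 was found in 100% and 96% of the Postn and Pln sets and Myh11, the smooth muscle myosin heavy chain, in 86.8% and 80%. Casq2, a calcium store protein, had 55, 67, 39 and 22 counts in the Postn set of control 1, control 2, CCl4 1 and CCl4 2, and 1, 4, 0 and 0 in the Pln set. Pln showed the opposite pattern, with 0 in the Postn set of every library and 82, 45, 27 and 67 counts in the Pln set. Among receptors, Bdkrb2 for bradykinin had 55, 55, 45 and 18 counts in the Postn set and 0 in the Pln set, and F2r, a thrombin receptor, had 53, 73, 41 and 24 against 0. P2rx1, an ATP-gated channel of vessel and visceral muscle, had 0, 0, 1 and 0 counts in the Postn set and 14, 12, 4 and 12 in the Pln set. Chrm2 and Chrm3, the muscarinic receptors through which acetylcholine contracts the muscle coat, had no count in any member, and Tacr2, a tachykinin receptor, had 1. A count of 0 in the 536302 counts of all members allows up to 5.59 CPM (3 counts, counting error only), so low levels of these receptors were not detectable at this depth. Barx1, a factor of stomach mesenchyme, and Grem1 and Rspo2, niche signals of stromal cells, also had no count. Lamb1, a laminin chain of the basement membrane, had 49, 65, 45 and 30 counts in the Postn set and 1, 0, 0 and 0 in the Pln set, and Bmp4, a crypt-restraining signal, had 36, 44, 27 and 18 against 3, 0, 0 and 0.

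The sizes of the sets varied by library. The Pln set was 20 of 62 members in control 1, 8 of 52 in control 2, 7 of 29 in CCl4 1 and 15 of 36 in CCl4 2, or 32.3%, 15.4%, 24.1% and 41.7%. These shares overlapped between the groups, and control 2 and CCl4 2 lay at the ends. The median count per cell in the Postn set was 3045, 2873, 2732.5 and 2265, and in the Pln set 2506, 3966, 3104 and 2535. The median of the Pln set was thus lower in control 1 and higher in the other libraries. The part of depth in the division into sets was not tested. Each value of all members below is a sum over both sets.

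The rule's threshold is shown by the cells next to it. Members with exactly 3 muscle genes numbered 4, 3, 1 and 2 in control 1, control 2, CCl4 1 and CCl4 2, and held 10, 4, 4 and 5 counts of Actg2 in all. Cells that missed the rule with Actg2 and a single further muscle gene, and no excluding gene, numbered 2, 3, 2 and 5, with 2, 3, 3 and 9 counts of Actg2. Few cells lay at this edge. The muscle side alone was met by 313, 294, 302 and 282 cells, of which 19.8%, 17.7%, 9.60% and 12.8% had no excluding gene. Dpt, a matrix protein of fibroblasts, was present in 46.0%, 46.3%, 61.6% and 49.3% of the cells that met the muscle side, and Rgs5 in 41.2%, 42.9%, 51.3% and 51.4%. Epcam, of epithelium, was present in 7.99%, 8.84%, 19.2% and 16.3% of them, Pecam1, of endothelium, in 3.83%, 7.48%, 12.9% and 14.9%, and Lum in 14.4%, 14.97%, 28.8% and 26.6%. All of these shares were higher in both CCl4 libraries than in both controls. The muscle-side cells also held more counts there, with medians of 4890 and 4145 against 3812 and 3876.5 in the controls. With each cell thinned to 1000 counts, the shares of Dpt, Rgs5 and Epcam stayed higher in both CCl4 libraries. Those of Lum (4.35%, 7.24%, 6.70% and 6.40%) and of Pecam1 (0.87%, 2.26%, 2.06% and 4.07%) overlapped between the groups. After thinning to 1000 counts, the shares with none of the excluding genes were 49.1%, 43.4%, 33.5% and 39.5%.

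Members made up a smaller share of the kept cells in the CCl4 libraries. They were 0.719% and 0.593% of kept cells in the controls and 0.263% and 0.346% in the CCl4 libraries, or 0.656% ± 0.0894 against 0.304% ± 0.0587 (mean ± SD, n = 2). Both CCl4 libraries lay below both controls. The log2 ratio was -1.11 (SE 0.274, edgeR quasi-likelihood test over 7 cell classes, adjusted p = 0.0206), while the exact two-sided permutation test gave p = 0.333, the smallest that 2 against 2 libraries allow. A share depends on all other cells: epithelial cells were 24.1% and 23.3% of kept cells in the controls and 39.5% and 38.9% in the CCl4 libraries. Among cells without Epcam the log2 ratio was -0.76, with adjusted p = 0.0783. The call was also lost when the cells with the highest doublet scores were removed (-1.03, adjusted p = 0.0618) and when any single library was left out (adjusted p from 0.126 to 0.284). The doublet scores marked 1, 7, 1 and 0 members in control 1, control 2, CCl4 1 and CCl4 2.

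The share was also taken without the rule's conditions on other cells' genes. Cells that met the muscle side alone were 3.63% and 3.35% of kept cells in the controls and 2.73% and 2.71% in the CCl4 libraries (log2 ratio -0.36, edgeR adjusted p = 0.000983), against -1.11 for the members; the difference between these ratios was not tested. Among them, cells with a count of Hhip were 1.89% and 1.84% in the controls and 1.57% and 1.37% in the CCl4 libraries. Both CCl4 values lay below both controls. Their exact binomial 95% intervals, which cover counting error only, overlapped between the groups, as in control 2 (1.57% to 2.14%) and CCl4 1 (1.34% to 1.82%). The Postn set within the members was 0.487% and 0.502% of kept cells against 0.199% and 0.202%, with no overlap of values. Its intervals did not overlap either: the lowest control interval began at 0.351% and the highest CCl4 interval ended at 0.308%. The Pln set was 0.232% and 0.0912% against 0.0634% and 0.144%, and these overlapped. The part of free RNA and of doublets in the excluding genes was not tested.

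**Figure D2:**
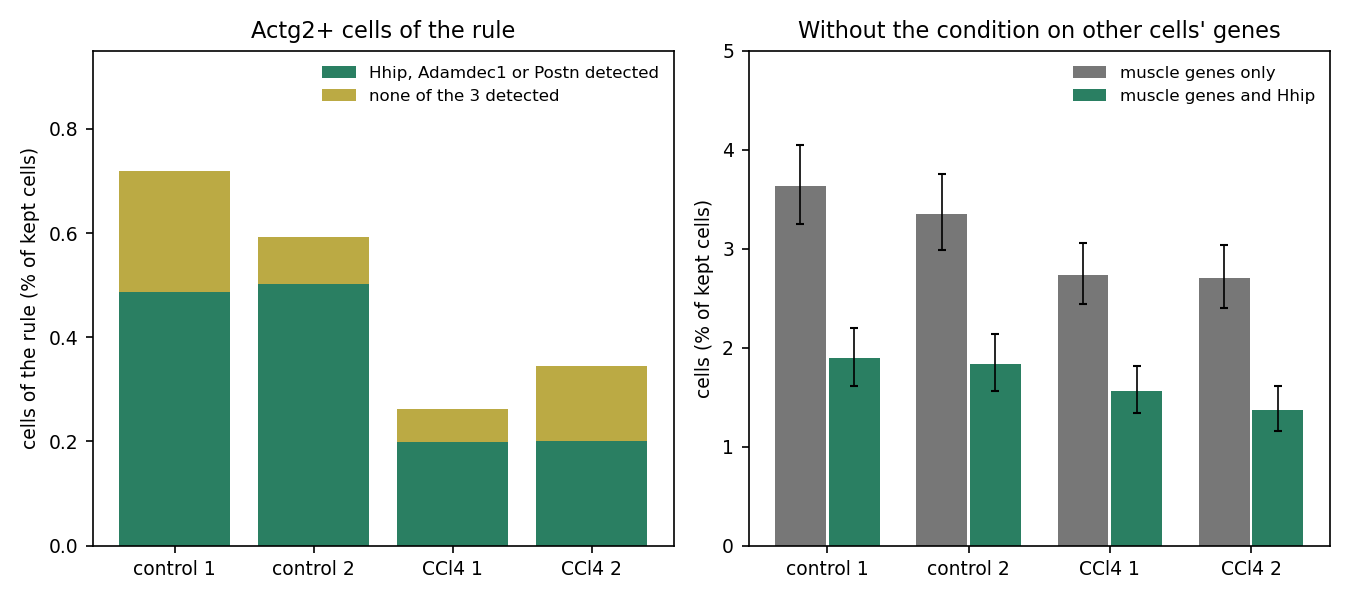
Left, members as % of kept cells in each library, divided into the Postn set (green) and the Pln set (yellow). Right, cells that met the muscle side of the rule (grey) and those of them with a count of Hhip (green), as % of kept cells, with exact binomial 95% intervals; the members average 0.656% in the controls and 0.304% with CCl4, while the grey bars stand at 3.63% and 3.35% in the controls and 2.73% and 2.71% with CCl4.

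Genes of smooth muscle contraction are textbook targets of serum response factor, which binds a short element called the CArG box. The element was searched in RefSeq promoter windows (GRCm38.p6, 250 bases before to 50 after a start site); it reads the same way on both strands. It was found in 1.63% of 32851 windows and in 4 of the 20 windows of the contractile list, where 17 of 21 genes had a window. It was found in 4 of 39 windows of the dense body and attachment list. It was found in 0 of 10 windows of the 14 genes of the membership rule, the 7 muscle genes and the 7 excluding genes. Of these 14, 9 had a window, and Actg2, Myh11 and Tagln had none. The 10 windows therefore include excluding genes and leave out part of the muscle genes. The 4 stretches with the element in the contractile list are shown, and none of their genes belongs to the rule. Capitals mark the CArG box, and each line runs 5′ to 3′ on the gene's strand. Myl9 lies at chr2:156775263-156775352 on the plus strand, Cnn2 at chr10:79988504-79988593 on the plus strand, Myl6 at chr10:128493010-128493099 on the minus strand and Actg1 at chr11:120348536-120348625 on the minus strand, all just upstream of the start site.
Myl9: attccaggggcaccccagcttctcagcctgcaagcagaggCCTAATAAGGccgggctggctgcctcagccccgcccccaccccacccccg
Cnn2: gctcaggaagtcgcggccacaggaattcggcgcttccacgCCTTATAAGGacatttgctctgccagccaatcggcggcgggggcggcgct
Myl6: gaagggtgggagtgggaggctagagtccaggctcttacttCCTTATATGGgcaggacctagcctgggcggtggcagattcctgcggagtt
Actg1: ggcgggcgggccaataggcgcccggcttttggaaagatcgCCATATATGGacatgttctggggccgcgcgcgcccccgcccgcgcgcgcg
A match is a description of the letters, and binding was not measured.

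None of the contractile genes passed the test between the groups. Actg2, Tagln, Myh11, Lmod1, Cnn1, Synpo2 and Des chose the members in both groups, so their levels are a description of cells picked for them, and they support no statement that contraction genes were alike. Levels are CPM of the summed counts of all members in a library, scaled by edgeR. Actg2 (chr6:83512905-83536265, minus strand) was 2742 and 2500 CPM in the controls and 2825 and 2420 in the CCl4 libraries. Myl9, a regulatory light chain of myosin, was 6849 and 6274 CPM in the controls and 6150 and 6990 in the CCl4 libraries. In both genes the groups overlapped. The log2 ratio of CCl4 over control was 0.0013 for Actg2 (95% interval -0.38 to 0.38) and 0.0014 for Myl9 (-0.34 to 0.34). Tagln, an actin-binding protein, had 0.0099 (-0.34 to 0.36), and Acta2 (chr19:34241090-34255590, minus strand) had 0.14 (-0.22 to 0.50). Mylk, the kinase that phosphorylates myosin, had -0.11 (-0.50 to 0.28). Myh11 (chr16:14194535-14291372, minus strand) was 3231 and 3244 CPM in the controls and 4294 and 4021 in the CCl4 libraries, with no overlap and a log2 ratio of 0.36 (0.010 to 0.71), but its edgeR adjusted p was 0.983. Lmod1, which starts actin filaments, had a log2 ratio of -0.42 (-0.87 to 0.033), with both CCl4 libraries below both controls. Cnn1 (calponin) and Synpo2, an actin-bundling protein, had -0.060 (-0.59 to 0.47) and 0.070 (-0.69 to 0.83). Des had 0.38 (-0.10 to 0.86), also with no overlap, and its level followed the set: 403 to 481 CPM in the Postn set of the 4 libraries and 2316 to 3465 in the Pln set.

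**Figure D3:**
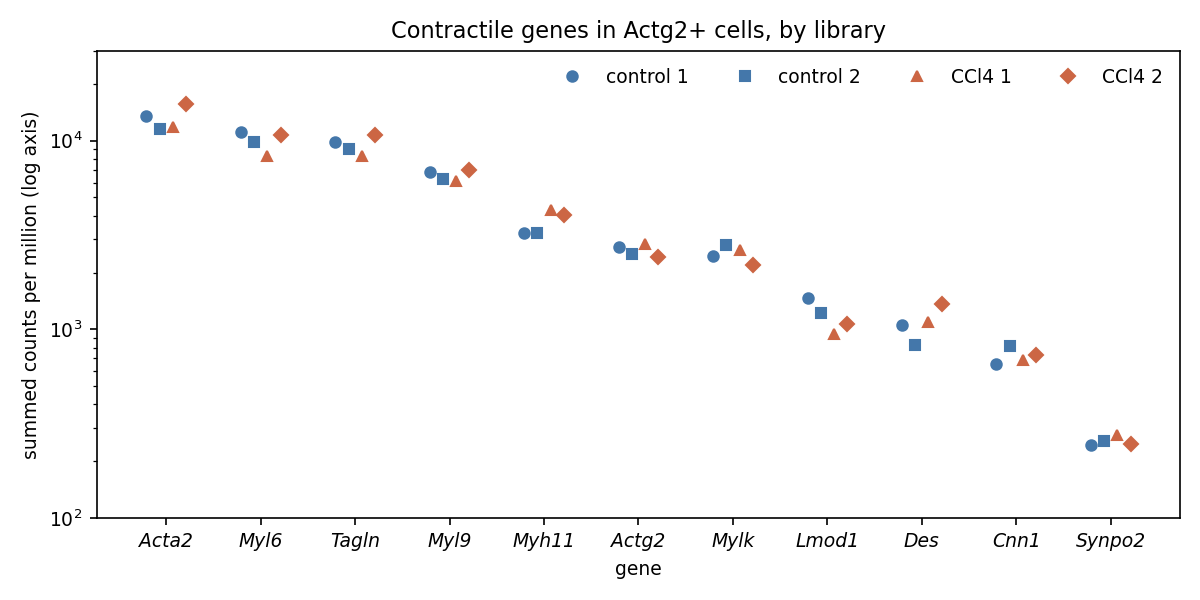
CPM (log axis) of 11 contractile genes (x axis) in all members, a point for each of the 4 libraries (blue, control; orange, CCl4). The points of a gene lie close together, and Myh11 has both CCl4 libraries, 4294 and 4021, above both controls, 3231 and 3244.

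Across all genes, none passed the test between CCl4 and control. The edgeR quasi-likelihood test took 2147 genes and called 0 at an adjusted p under 0.05 in either direction (0% called higher and 0% called lower), with 101 genes, 4.7%, at an unadjusted p under 0.05 (1.82% higher and 2.89% lower). DESeq2 also called 0, with 32 at an unadjusted p under 0.05. The median half-width of the 95% interval of a gene's log2 ratio was 1.08, so changes of less than about this size were mostly not detectable at the depth of 91763 to 183089 summed counts per library. Larger changes could be missed as well: the log2 ratios of tested genes ran from -2.47 to 3.49, and none was called. Both CCl4 libraries lay above both controls in 17.1% of tested genes and below them in 16.3%.

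The median log2 ratio of all tested genes was 0.0019, and lists of muscle function lay on both sides of it. For the counts below, 17.1% of all tested genes had both CCl4 libraries above both controls, and 16.3% had both below. The contractile list had 20 tested members with a median of 0.0014, 3 of them with both CCl4 libraries above both controls and 4 below. The list of myosin phosphorylation control had 13 with a median of 0.041, the dense body and attachment list 28 with a median of 0.099, and calcium entry and store 11 with a median of -0.11. Potassium and chloride channels had 6 with a median of 0.26, 2 above and 0 below, and receptors had 12 with a median of 0.027. Muscle transcription factors had 15 with a median of -0.34, 12 of them with a ratio below 0, 4 with both CCl4 libraries below both controls and 1 above. Among them Csrp2, a LIM protein of smooth muscle, was 430 and 329 CPM in the controls and 235 and 302 in the CCl4 libraries (log2 ratio -0.51, edgeR adjusted p = 0.988), while Tcf21, a factor of mesenchyme, was 349 and 311 against 388 and 246 and overlapped. Glucocorticoid and fasting genes had 10 with a median of 0.36, genes of the unfolded protein response 11 with a median of -0.18, and glycolysis and hypoxia genes 10 with a median of -0.15. Basement membrane genes had 10 with a median of 0.26, led by Sparc, a collagen-binding protein, at 2075 and 1780 CPM in the controls and 2713 and 2397 in the CCl4 libraries (log2 ratio 0.41, interval 0.013 to 0.80). Interstitial and elastic matrix genes had 22 with a median of 0.0073. Genes of the synthetic state and of repair had 20 with a median of -0.17; Postn was 2080 and 2122 CPM in the controls and 2448 and 1546 in the CCl4 libraries, which overlapped. Hhip, from the niche signals, was 1027 and 872 CPM against 1489 and 963, also overlapping. Of the 50 nuclear genes of oxidative phosphorylation, 11 lay above and 5 below, with a median of 0.039, and of the 11 tested mitochondrial transcripts 8 lay above and 0 below, with a median of 0.23. The median mitochondrial share of a member was 7.11%, 6.62%, 7.60% and 8.70% in control 1, control 2, CCl4 1 and CCl4 2.

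Many heat shock and immediate early genes had lower levels in the CCl4 libraries, and none passed the test. Of 19 heat shock genes tested, both CCl4 libraries lay below both controls in 10 and above in 3, with a median log2 ratio of -0.29. Over all tested genes, 16.3% lay below and 17.1% above in this way. Hspa1b (chr17:34956436-34959238, minus strand), an inducible Hsp70 chaperone, was 3871 and 4134 CPM in the controls and 2560 and 2408 in the CCl4 libraries. It had a log2 ratio of -0.69 (SE 0.169, edgeR adjusted p = 0.668), which was -0.21 with no condition on genes of other cells. Its near-identical neighbour Hspa1a, whose counts may not be fully told apart from it, was 6929 and 6414 CPM against 4855 and 4839 (-0.46, adjusted p = 0.983). The 21 immediate early genes had a median of -0.28, with 10 below and 3 above, among them Jun, a transcription factor of the AP-1 complex, at 1231 and 1293 CPM against 938 and 874. Fos, its partner, was 2747 and 3018 against 2172 and 3607, and overlapped. Hsph1, a co-chaperone of Hsp70, was 392 and 701 CPM in the controls and 224 and 213 in the CCl4 libraries (-1.31, edgeR adjusted p = 0.763). Over 18 alternatives the log2 ratio of Hsph1 stayed below 0, from -1.70 to -0.32. It was -0.32 in members without a leukocyte marker, -0.70 with the highest doublet scores removed and -0.88 without control 2. Without the condition on Dpt and Lum it was -1.31 and was called (edgeR adjusted p = 0.000200).

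Antigen presentation by MHC class I had 11 tested genes with a median of -0.33, 4 below and 1 above. The shares over all tested genes were 16.3% below and 17.1% above, and such short lists are hard to weigh against them. B2m (chr2:122147686-122153083, plus strand), the light chain of the class I molecule, was 1156 and 1280 CPM in the controls and 755 and 650 in the CCl4 libraries, with no overlap (log2 ratio -0.79, SE 0.224, edgeR adjusted p = 0.763). Within the Postn set B2m was 1526 and 1210 CPM against 933 and 882. Within the Pln set it was 389 and 1539 against 225 and 334. Both CCl4 libraries lay below both controls in either set. The Pln set held only 8 cells in control 2 and 7 in CCl4 1. Its leukocyte markers summed to 2783 CPM in control 2, against 88.3, 360 and 95.5 in control 1, CCl4 1 and CCl4 2. The part of leukocyte RNA in the B2m of control 2 was not tested. The size depended on the rule: the log2 ratio of B2m was -0.025 with only Ptprc, Epcam and Pecam1 at 0. It was 0.11 with no condition on genes of other cells, the only change of sign among 18 alternatives. The lowest ratio among them was -1.01. The interferon response list had 9 tested genes with a median of -0.20, 3 above and 4 below. Of inflammatory mediators 5 were tested, 2 of them below, led by Socs3, a feedback inhibitor of cytokine receptors, at 495 and 646 CPM against 326 and 314 (-0.83, edgeR adjusted p = 0.983).

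Vim, the vimentin filament, and Igfbp7, a secreted binding protein chosen here after its values were seen, had higher levels in the CCl4 libraries. Vim was 1935 and 1610 CPM against 1999 and 4089, with CCl4 2 far above the others, and its log2 ratio was 0.78 (edgeR adjusted p = 0.983). The ratio was 0.12 without CCl4 2, 1.19 without CCl4 1 (adjusted p = 5.02e-06), and -0.034 with no condition on genes of other cells. In the Pln set Vim was 4363 and 4387 CPM against 4590 and 7308, and in the Postn set 893 and 965 against 1271 and 1183. Pln cells were 32.3% and 15.4% of the members in the controls and 24.1% and 41.7% in the CCl4 libraries. Igfbp7 was 1140 and 939 CPM against 1622 and 1927 (0.77, adjusted p = 0.668). It was 727 and 742 against 1082 and 1082 in the Postn set, and 2120 and 1768 against 3555 and 2818 in the Pln set. The part of the sets' shares in the sums of all members was not tested.

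**Figure D4:**
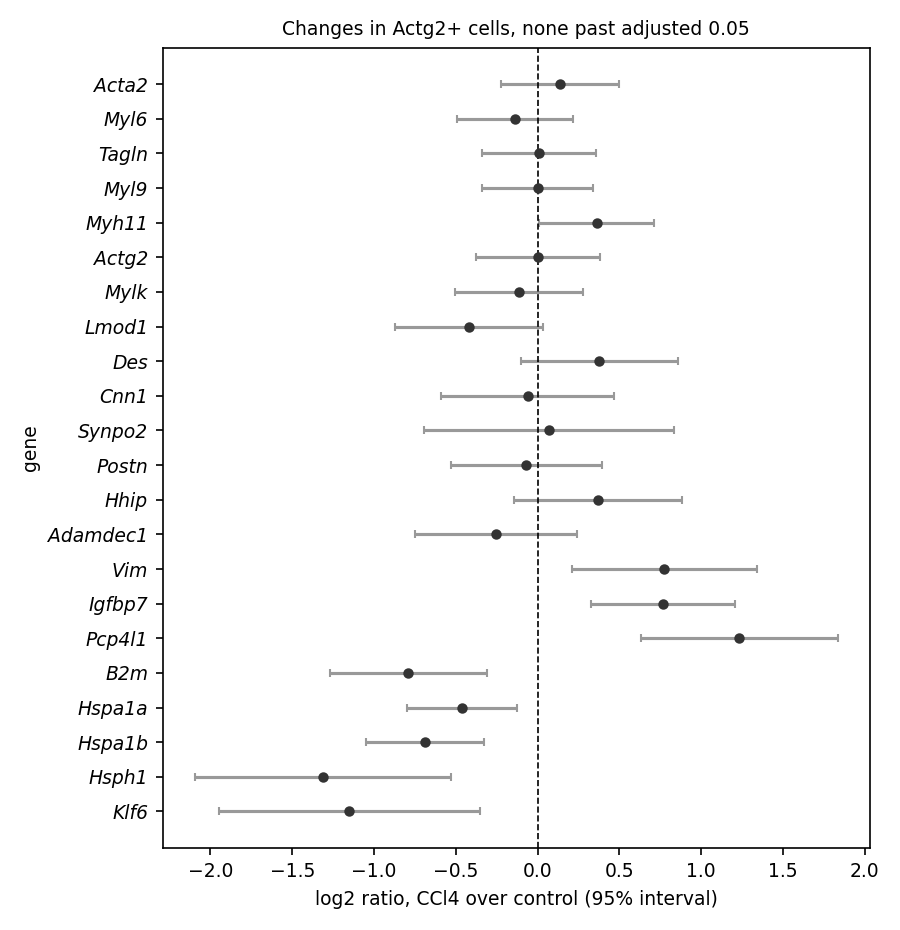
log2 ratio of CCl4 over control (x axis; points) with 95% intervals (bars) for 22 genes in all members, from the edgeR test on 2 against 2 libraries. The contractile genes lie between -0.42 and 0.38, and Pcp4l1 at 1.23 and Hsph1 at -1.31 are the highest and the lowest of those drawn, none with an adjusted p under 0.05.

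The change with CCl4 was compared with that of vascular mural cells by an interaction test on 5773 genes, and 1 was called: Pcp4l1 (chr1:171173262-171196268, minus strand). The share called was 0.0173% for a larger change in the members and 0% for a smaller one, and 292 genes had an unadjusted p under 0.05 (1.96% in the first direction and 3.1% in the second). The median half-width of the 95% interval of a gene's difference was 2.04, so smaller differences were mostly not detectable. The interval is not adjusted for the number of genes tested, so larger differences could be missed as well. Pcp4l1 was 683 and 457 CPM in the members of the controls and 1010 and 1691 in those of the CCl4 libraries. In mural cells it was 1463 and 1258 CPM in the controls and 1066 and 1130 in the CCl4 libraries, so the order of the groups was the opposite. The difference between the cells in the log2 ratio was 1.44 (SE 0.277, 95% interval 0.88 to 2.002, edgeR adjusted p = 0.0431), while the median of all tested genes was -0.087. In the members alone the log2 ratio was 1.23 (adjusted p = 0.668) and in mural cells -0.28 (adjusted p = 0.640).

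Pcp4l1 was carried more by the Pln set, and the level was higher in both CCl4 libraries within each set. The Postn set had 277 and 327 CPM in the controls and 460 and 621 in the CCl4 libraries, from 35, 44, 34 and 31 counts. The Pln set had 1625 and 1015 against 2925 and 2866 CPM, from 92, 31, 65 and 120 counts. With only the Postn set in place of all members, the interaction was 1.02 (adjusted p = 0.668) and not called. The call was also lost without control 1 (1.64, adjusted p = 0.102), without control 2 (1.24, adjusted p = 1) and without the library as a block (1.45, adjusted p = 0.395). The interaction was not run for cells of the muscle side alone. The log2 ratio of Pcp4l1 between CCl4 and control, 1.23 in the members, was -0.10 in those cells (edgeR adjusted p = 0.810), and neither was called.

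**Figure D5:**
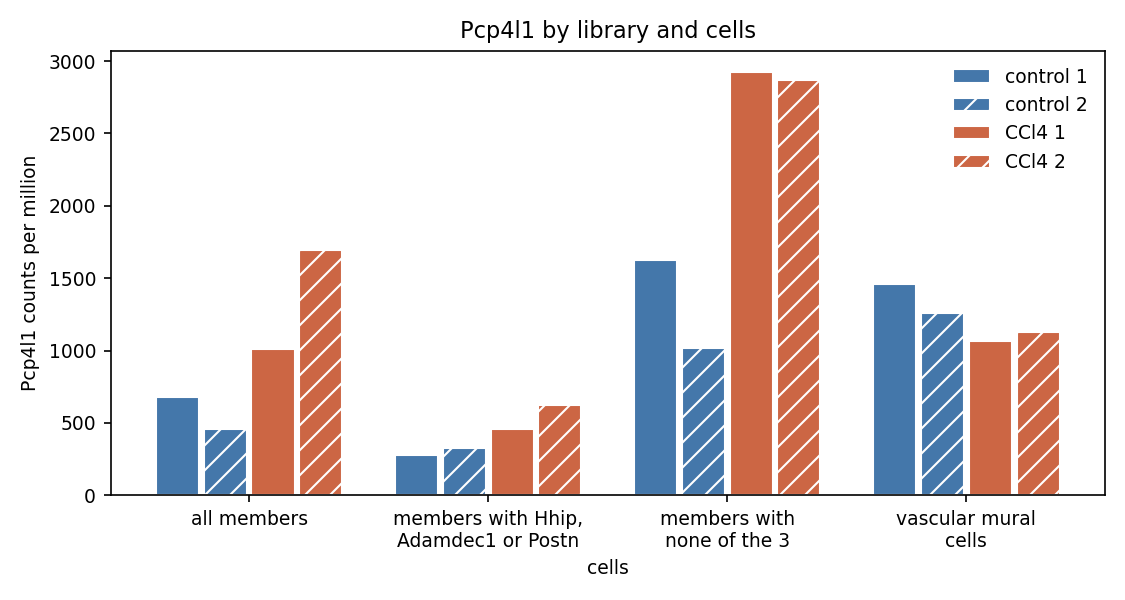
Pcp4l1 in CPM (bars from 0) for each library (blue, control; orange, CCl4) in all members, the Postn set, the Pln set and vascular mural cells. The CCl4 bars are above the control bars in the members and in each of their sets, 2925 and 2866 against 1625 and 1015 in the Pln set, and below them in mural cells.

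Against fibroblasts, the interaction test on 13172 genes called 0 (0% in either direction), with 343 at an unadjusted p under 0.05 (0.903% larger and 1.7% smaller in the members) and a median of -0.17 in the log2 difference. DESeq2 was not run on the interactions. For Hspa1b the difference from fibroblasts was -0.78 (edgeR adjusted p = 0.778) and for B2m it was -0.67 (adjusted p = 1). The log2 ratios in fibroblasts themselves were -0.052 and -0.27, with adjusted p of 0.913 and 0.405.

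Transcripts of other cells were low or uneven. Of 14 vascular mural markers, 3 were at 0 (Rgs5 and Notch3 by the rule, and Steap4), and their summed level was 661 and 591 CPM in the controls and 612 and 1232 in the CCl4 libraries, mostly in the Pln set, where it was 1485 to 2221 CPM against 282 to 365 in the Postn set. Fibroblast markers, 16 with Dpt, Lum, Cd34 and Smpd3 at 0, summed to 3634 to 4365 CPM in the controls and 3069 to 4620 in the CCl4 libraries. Leukocyte markers, 16 with Ptprc, Cd3e, Cd3d, Cd79a and Nkg7 at 0, summed to 48.4 and 1610 CPM in the controls and 204 and 89.6 in the CCl4 libraries. The high value of control 2 came with 88 counts of Lyz2, the lysozyme of myeloid cells, all in 2 members. Epithelial markers, 19 with Epcam and Reg3g at 0, summed to 570 to 1000 CPM in the controls and 796 to 1019 in the CCl4 libraries. Antibody transcripts, 8 with Mzb1 at 0, summed to 1075 and 1506 CPM against 388 and 751. Endothelial markers, 12 with 5 at 0 including Pecam1 and Cdh5, stayed at or below 85.4 CPM. Of 8 markers of interstitial cells of Cajal, the gut pacemakers, the sum was at most 104 CPM. Glial and neuronal markers, 17 with 7 at 0 including Gfap, summed to 378 to 643 CPM, most of it Cryab, a chaperone that muscle also expresses. Mesothelial and red cell markers, 11 with 6 at 0, summed to at most 143 CPM. The part of these transcripts in the results was not tested.

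Wider versions of the rule called more genes, including genes known from fibroblasts and endothelium. Without the condition on Dpt and Lum, 34 of 6181 genes were called. With only Ptprc, Epcam and Pecam1 at 0, 123 of 9360 were called, among them a higher Igfbp3 (log2 ratio 2.83), Clec3b (1.72), Dcn (1.12) and Dpt (1.02) in CCl4, the last pair being matrix proteins of fibroblasts. With no excluding gene, 191 of 10976 were called, including higher Kdr (2.17) and Flt1 (1.95), receptors of endothelium, and lower Actg2 (-0.57, edgeR adjusted p = 0.0144) and Acta2 (-0.41, adjusted p = 0.00940). These genes were chosen after their values were seen, apart from Dpt, Actg2 and Acta2. Without the conditions the log2 ratio of Myh11 was -0.34 and that of Des -0.44, against 0.36 and 0.38 in the members, while Lmod1 had -0.38 and -0.42. The shares of muscle-side cells with Dpt, Epcam and Pecam1 were higher in the CCl4 libraries before thinning. After thinning, those of Dpt and Epcam stayed higher and those of Pecam1 overlapped between the groups. The part of these shares in the values above was not tested.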

How the data were processed

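The deposited matrices hold unnormalized counts of each gene in each barcode. Their headers name PISA v0.12b as the program. GRCm38 is the build in the submitters' processing notes; an aligner was not named in any source at hand. Whether a count is a molecule or a read is not stated. Every deposited barcode held over 1000 counts. No deposited annotation of cells was used; members followed the rule, and profiles shared between libraries numbered 0 of 38852. Barcode names are running numbers and show no shared cells. Doublets were kept in the main analysis and removed in an alternative, as the 6% of cells with the highest Scrublet score (scanpy 1.11.5).

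Counts were summed per library over members and tested with edgeR 4.0.16 in R 4.3.3 (filterByExpr, TMM, quasi-likelihood test, two-sided, Benjamini-Hochberg at 0.05), with DESeq2 1.42.0 as an alternative. Interactions had the library as a block. Shares were tested over 7 classes taken in order. Scripts were tested on simulated data. Gene positions are from GENCODE M21. The members and 32 gene lists were chosen with earlier results of these data known. Named genes were those of the rule, the 3 highest of each list and genes called; every other gene in the text (such as Myl9, Igfbp7, Hsph1, Bdkrb2, F2r and P2rx1), and the Postn and Pln sets with their leading genes, were chosen after the values were seen. Fibroblasts needed Dpt or Lum with a further stromal gene and no Actg2. Alternatives are given in the closing section.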

Additional observations from a re-analysis of the deposited data

Results flagged for a closer look

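Pcp4l1 differed between Actg2+ cells and vascular mural cells in its change with CCl4. The difference in the log2 ratio was 1.44 (edgeR interaction test, adjusted p = 0.0431 over 5773 genes), and Pcp4l1 was higher in both CCl4 libraries than in both controls among the members and lower in both among mural cells. With the Postn set alone the difference was 1.02 (adjusted p = 0.668). Over the alternatives the difference lay between 1.02 and 1.77. With 2 libraries in a group, no test for a single outlying library could be made.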

How the results depend on the processing

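The share of members among kept cells was below the controls in every alternative run. It lost the call among cells without Epcam (-0.76), with doublet scores removed (-1.03), with the replicate block (-1.11, adjusted p = 0.0640) and without each library in turn (-1.32 to -0.92). For genes of the members, 0 calls became 13 with no filter on low counts, 3 with the replicate block (Crip1, Gm26917 and Pcp4l1 higher), 1 with stricter cells, 34 without the condition on Dpt and Lum, 123 with only Ptprc, Epcam and Pecam1 at 0, 191 with no condition on genes of other cells, and 0 to 13 without each library in turn: 10 without control 1, 0 without control 2, 13 without CCl4 1 and 6 without CCl4 2. A group with a lone library was assumed to vary like the other. The difference from mural cells had 3 calls with no filter, 0 without the library block, 4 with thinned cells and 0 to 18 without each library in turn. The difference from fibroblasts had 1 call with thinned cells, 1 with the Postn set alone and 0 to 6 without each library in turn. With no condition on genes of other cells, contractile genes turned to called falls: Actg2 (-0.57), Tagln (-0.39), Acta2 (-0.41), Myl9 (-0.43) and Tpm2 (-0.54). Of 21 genes followed in the members, 13 changed sign in at least 1 alternative. The conditions on other cells were chosen as alternatives after the data were seen, apart from their full removal. Same-numbered libraries had deviations correlated at -0.076 over 2147 genes, so nothing shows that the numbers pair the libraries. The cause of these shifts was not tested.

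The depth of 29 to 62 cells a library limits single genes to large changes. Levels of a gene in all members mix both sets.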
